A study of Mus musculus with 4 samples.

Results

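Colon gene expression in mice given trinitrobenzene sulfonic acid (TNBS) together with zingerone was set against that in mice given TNBS alone, for 9609 of the 16637 genes named on the array. A gene entered the comparison, and is called measured, if its probes averaged at least the named-probe median of the zingerone array (272.25 in deposited intensity units) or that of the TNBS array (269). P2rx4, at 272.25 on zingerone and 243.5 on TNBS, lay just inside this limit, and Shisal1, at 272.21 on zingerone and 203.5 on TNBS, lay just outside it. Probes that were bright on 1 of the 4 arrays alone were set aside first: at least 4-fold above the next array while the other arrays lay within 1.4-fold of each other. This removed 35 named probes, 7 of them bright on zingerone and 9 on TNBS.

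All groups were female mice of the strain labelled BALC/c, or BALB/c for mock, and colon tissue was taken on day 7. The zingerone group received 250 mg/kg TNBS mixed with zingerone in 0.1 ml of vehicle with 50% ethanol. The ginger group received the same TNBS mixed with ginger extract, the TNBS group TNBS in that vehicle, and the mock group the vehicle alone. Each group had 6 mice and 1 array. The amount of zingerone is given as various amounts, its dose on this array is not stated, and pooling of mice before hybridisation is neither stated nor denied by the labels. With 1 array per group there is no replicate, no error and no test, so every difference below compares 2 arrays and not the treatments. Higher or lower means at least 2-fold apart. Of 15 fixed markers of colonocytes, goblet cells, endocrine cells and muscle, 14 were measured, and the exception was Fcgbp, at 149.2 on zingerone and 137.2 on TNBS.

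TNBS is a hapten that, given in ethanol, provokes transmural inflammation of the rodent colon. Ethanol breaks the mucosal barrier, and haptenated proteins then draw in neutrophils and macrophages, whose recruitment runs through chemokines induced by interleukin-1 and the transcription factor NF-κB. Colonocytes meanwhile lose transport proteins and goblet cells lose mucus proteins. Zingerone is a phenolic ketone of cooked ginger. Phenols of this kind are conjugated to glucuronic acid or sulfate in gut and liver.

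The promoters of 3 of the genes with the deepest decreases are shown first, because they share a 10-base sequence that NF-κB proteins are known to bind, a κB motif. They belong to Cxcl3, Cxcl1 and Cxcl2, ligands of the neutrophil receptor CXCR2. RefSeq promoters (GRCm38.p6) run from 250 bases before to 50 bases after the start site, and all 3 are on the plus strand, at chr5:90785851-90786150, chr5:90890995-90891294 and chr5:90903649-90903948. Capitals mark this κB motif, which is the same in all 3 and begins 73, 71 and 97 bases before the start site.

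Cxcl3: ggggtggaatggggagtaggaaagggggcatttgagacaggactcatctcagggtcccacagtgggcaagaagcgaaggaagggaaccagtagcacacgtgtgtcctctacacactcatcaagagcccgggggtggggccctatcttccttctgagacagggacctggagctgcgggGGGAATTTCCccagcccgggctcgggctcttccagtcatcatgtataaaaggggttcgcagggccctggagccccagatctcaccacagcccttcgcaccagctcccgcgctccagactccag
Cxcl1: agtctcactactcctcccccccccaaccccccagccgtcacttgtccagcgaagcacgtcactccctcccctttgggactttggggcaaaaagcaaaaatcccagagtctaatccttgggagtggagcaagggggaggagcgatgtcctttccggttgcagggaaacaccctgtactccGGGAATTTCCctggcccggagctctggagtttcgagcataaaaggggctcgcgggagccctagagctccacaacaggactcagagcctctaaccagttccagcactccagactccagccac
Cxcl2: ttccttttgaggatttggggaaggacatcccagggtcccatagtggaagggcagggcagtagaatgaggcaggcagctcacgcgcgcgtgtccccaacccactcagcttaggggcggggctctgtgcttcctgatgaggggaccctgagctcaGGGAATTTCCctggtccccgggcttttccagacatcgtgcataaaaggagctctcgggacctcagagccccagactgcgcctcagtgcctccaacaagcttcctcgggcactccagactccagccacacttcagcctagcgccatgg

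The letters in capitals, searched on both strands, occur in 29 of all 32851 promoters (0.0883%). They occur in 3 of 291 promoters of the genes at least 2-fold lower with zingerone (1.03%), namely those shown, in 0 of 452 promoters of the higher genes and in 9 of 9042 promoters of other measured genes. The 3 genes shown are close relatives and neighbours on the same chromosome, so their matches are not independent of each other. The κB motif of the immunoglobulin kappa enhancer, searched likewise, occurs in 51 of all promoters (0.155%), and in 4 of those of lower genes, 1 of those of higher genes (Plekhh1) and 17 of those of other measured genes. The 4 are those of Csf1 and B2m and 2 overlapping promoters of Nfkb2 that hold the same genomic site. A loose form, GGG and CC with any 5 bases between, takes in both motifs and occurs in 50.8% of all promoters, in 65.6% of those of lower genes, in 271 of 452 promoters of higher genes and in 65.5% of those of other measured genes. A match is a run of letters in this window and does not show binding.

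Zingerone against TNBS gave 454 measured genes at least 2-fold higher (4.72%) and 289 at least 2-fold lower (3.01%), together 7.73%. The median difference of all measured genes was -0.02 on the log2 scale, and the 5th and 95th percentiles were -0.79 and 0.97. Decreases were fewer but deeper: 60 genes were at least 4-fold lower and 22 at least 4-fold higher. Ginger against TNBS, which shares the TNBS array, gave 115 higher (1.2%) and 240 lower (2.5%) among the same genes, together 3.69%. Against mock, zingerone gave 148 higher (1.54%) and 89 lower (0.926%), together 2.47%. TNBS against mock gave 502 higher (5.22%) and 428 lower (4.45%), together 9.68%. These comparisons share arrays, so their counts are not independent.

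**Figure D1:**
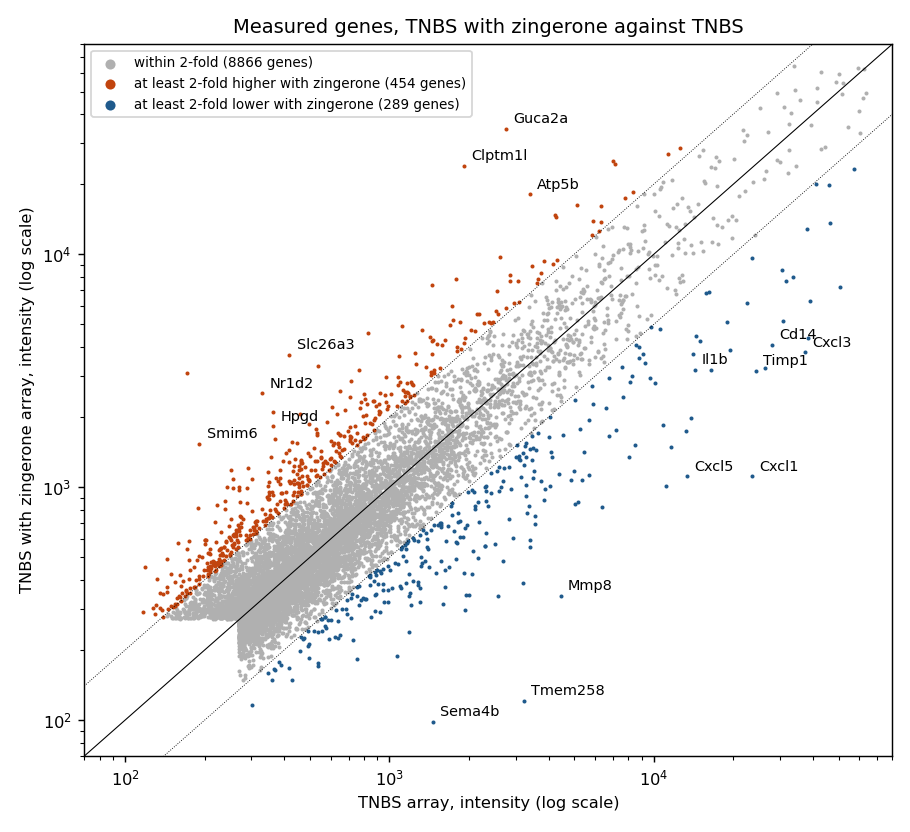
Intensity of each measured gene on the zingerone array (y) and on the TNBS array (x), both on log scales. The solid line marks equal values and the dotted lines 2-fold: 454 genes lie above the upper and 289 below the lower line, with Cxcl1, Cxcl5 and Mmp8 far below and Guca2a and Slc26a3 far above.

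Chemokines that draw in neutrophils were among the 20 deepest decreases. Cxcl1 read 1116 on zingerone, 3132 on ginger, 23605 on TNBS and 437.2 on mock, and was 21.2-fold lower on zingerone than on TNBS. Cxcl5 read 1117 on zingerone, 1798 on ginger, 13394 on TNBS and 301.2 on mock, a log2 difference of -3.58. Cxcl3 read 3801, 5666, 37402 and 167.5 on the same arrays, 9.84-fold lower, and Cxcl2 read 6282, 8788, 39028 and 486.8, 6.21-fold lower. In each of these 4 genes the zingerone array had the lowest value of the TNBS-treated arrays and still lay above mock, from 2.55-fold (Cxcl1) to 22.7-fold (Cxcl3). All 8 genes of the list of CXCR2 ligands, related platelet chemokines and receptors were measured and 5 were lower, the platelet chemokine Pf4 by a log2 difference of -1.21, with a median of -1.92. The receptors Cxcr2 (-0.62) and Cxcr1 (0.10) and the platelet chemokine Ppbp (-0.43) were within 2-fold. Cxcl1, Cxcl2 and Cxcl3 are close relatives, and how far each probe tells them apart was not tested. Among 20 CC chemokines and receptors on the array 16 were measured, 6 were lower and none was higher. The monocyte attractants Ccl7 (340.6 on zingerone and 2574 on TNBS) and Ccl2 (295.8 and 1930) were 7.56-fold and 6.53-fold lower, and Ccl4 was 3.65-fold lower.

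Interleukin-1 is a master cytokine of this response, and the array holds its ligands, receptors and brakes. Il1b read 3196 on zingerone, 4222 on ginger, 14298 on TNBS and 719 on mock, which makes it 4.47-fold lower on zingerone than on TNBS. The decoy receptor Il1r2, which binds the cytokine without signalling, read 821.4, 916.8, 6346 and 233.2 and was 7.73-fold lower. The brake Irak3 was 4.08-fold lower, the antagonist Il1rn 2.86-fold and the signalling receptor Il1r1 2.79-fold, so ligand, receptors and brakes differed in the same direction. Il18, a cytokine that colonocytes make at rest, differed in the other direction: it read 1862 on zingerone, 1190 on ginger, 494.8 on TNBS and 2769 on mock, 3.76-fold higher. Il1a was less than 2-fold apart in the mean of 2 probes (-0.89), of which the brighter differed by -1.45 and the dimmer by -0.33. Of 23 such genes on the array 14 were measured, 6 lower and 1 higher. The median was -0.85 over the measured and -0.30 over all 23, beside -0.03 over all 16614 named genes left after setting probes aside. The filter lets in a gene that is dim on zingerone if it is bright on TNBS, so the medians below are taken over all members on the array where a list holds many dim genes. Probes set aside are left out of these lists.

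NF-κB itself was not measured, only transcripts of its system. The subunit genes Rela (913.1 on zingerone, 1074 on TNBS) and Nfkb1 (413 and 361.8) were less than 2-fold apart between these arrays, and Nfkb2 was 3.07-fold lower. Of the measured inhibitors and regulators 2 were lower: Nfkbiz 5.12-fold (696.5 on zingerone, 935.8 on ginger, 3565 on TNBS and 650.5 on mock) and Tnfaip3 4.28-fold (776.5, 847.6, 3326 and 541.8). Bcl3 (-0.56), Nfkbie (-0.54), Cyld (-0.18) and Tnip1 (0.23) were within 2-fold. Nfkbia, the classic inhibitor, has 1 probe, and it was set aside as bright on TNBS alone. It read 2249 on zingerone, 3021 on ginger, 13116 on TNBS and 2475 on mock, a difference of -2.54. A gene far higher on TNBS than on the other arrays is removed by this step when those arrays lie close together, whatever its cause. In all, 16 of 19 NF-κB genes on the array were measured and 3 were lower, with no member higher. Over the 19 genes the median was -0.23.

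Some cytokines of the IL-6 and G-CSF list were lower as well. Il6 was 4.12-fold lower (183 on zingerone and 754.8 on TNBS), the granulocyte growth factor Csf3 4.34-fold (374.1 and 1624) and the fibroblast cytokine Il11 4.48-fold (427.8 and 1918). With Socs3 and Csf1 they made 5 lower members among 9 measured of 18 genes of the IL-6 and G-CSF list, whose median over all 18 was -0.30. Tnf, at 367.2 on zingerone and 623.8 on TNBS, stayed within 2-fold, and so did all 13 measured of 26 TNF superfamily ligands and receptors (median over all -0.22). Immediate early genes had 6 of 22 measured members lower and 1 higher. The phosphatase Dusp1 read 1749 on zingerone and 13198 on TNBS, 7.55-fold lower, the survival gene Ier3 was 5.16-fold and the transcription factor Klf2 5.02-fold lower. Nos2 did not reach the filter on either array (137.5 on zingerone and 131.5 on TNBS).

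Of 15 measured prostaglandin genes 2 were higher and 3 lower. The inducible synthase Ptgs2 was 2.80-fold lower, and its 2 probes differed by -1.22 and -1.75. Hpgd, the enzyme that inactivates prostaglandins, was 5.04-fold higher, and its probes were higher by 2.78 and 1.89. The mean of those probes read 1828 on zingerone, 1304 on ginger, 362.5 on TNBS and 1748 on mock, so zingerone and mock were close. The secreted phospholipase Pla2g2a was 4.42-fold higher, and the prostaglandin transporter Slco2a1 2.82-fold and prostacyclin synthase (Ptgis) 2.28-fold lower. The other members stayed within 2-fold, among them the synthases Ptgs1 (-0.49) and Ptges (0.01) and the reductases Ptgr1 (0.16) and Ptgr2 (0.39). Synthesis genes thus shared no direction. Among breakdown genes, Hpgd and both reductases lay above TNBS, but only Hpgd passed 2-fold.

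Some neutrophil and macrophage markers were far lower with zingerone and others differed little. In whole tissue, fewer cells of a type and less RNA per cell cannot be told apart. Of 20 neutrophil markers on the array 14 were measured, 8 were lower and every measured member lay below its TNBS value. The collagenase Mmp8 read 342.2 on zingerone, 387.5 on ginger, 4446 on TNBS and 161.8 on mock, a log2 difference of -3.70. Ifitm6, an interferon-induced membrane protein gene, differed by -3.46, and Retnlg, which encodes a resistin-like protein of granulocytes, was 8.77-fold lower. Other common neutrophil markers were within 2-fold, namely S100a8 (-0.60), S100a9 (-0.53) and Itgam (-0.12). Over all 20 markers the median was -0.58. Slfn4, a further neutrophil list gene, was set aside as bright on TNBS alone, at 507.2 on zingerone and 3274 on TNBS. Among 28 monocyte and macrophage markers 22 were measured and 7 were lower, led by the chitinase-like Chil3 (8.25-fold), the lipopolysaccharide co-receptor Cd14 (4097 on zingerone, 4222 on ginger, 28071 on TNBS and 1322 on mock, 6.85-fold) and the adaptor Tyrobp (4.09-fold). A further 7 lay above their TNBS value, all within 2-fold, among them the complement gene C1qc (0.80), lysozyme Lyz2 (0.40) and Adgre1 (0.28), which encodes F4/80, and the median over all 28 was -0.39. The inhibitory receptor Lilrb4a was 5.71-fold lower, and all 3 of its probes passed 2-fold. None of 7 measured T and NK cell markers was 2-fold apart. The plasma cell genes Jchain and Mzb1 were 2.13-fold and 2.15-fold higher, while Sdc1 (0.43) and Xbp1 (0.33) were within 2-fold. Among 10 measured B and plasma cell markers, 7 lay above TNBS, 2 were 2-fold higher and none was 2-fold lower. The median over 16 on the array was 0.27.

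Among genes of matrix turnover, proteases and their inhibitors held the deepest decreases. Timp1, the inhibitor of matrix metalloproteinases, read 3168 on zingerone, 5296 on ginger, 24360 on TNBS and 673.8 on mock, 7.69-fold lower. Mmp10 was 5.65-fold lower, and with Mmp8 and others it made 7 lower members among 17 measured of 22 metalloproteinase and TIMP genes (median over all -0.39). The plasminogen activator Plat was 5.99-fold lower, the urokinase receptor Plaur 5.97-fold and coagulation factor F10 4.84-fold, among 6 lower of 15 measured genes of that system. Osteopontin (Spp1) was 5.57-fold lower, tenascin Tnc 3.65-fold, the growth factor Ccn2 3.86-fold and vimentin (Vim) 3.70-fold. Of 38 matrix proteins on the array 33 were measured, 5 were lower, 1 was higher and 12 in all lay above their TNBS value, with a median over all 38 of -0.21. The collagens Col1a1 (0.05) and Col1a2 (0.58) and the laminin Lamc1 (0.81) did not share the direction of Spp1 and Tnc. The higher one was thrombospondin Thbs4, at 4603 on zingerone, 2226 on ginger, 829.5 on TNBS and 3716 on mock, 5.55-fold higher and within 2-fold of mock. Saa3, an acute phase protein, was 7.05-fold lower (7210 on zingerone, 50859 on TNBS), and the antimicrobial Wfdc21 was 8.08-fold lower.

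**Figure D2:**
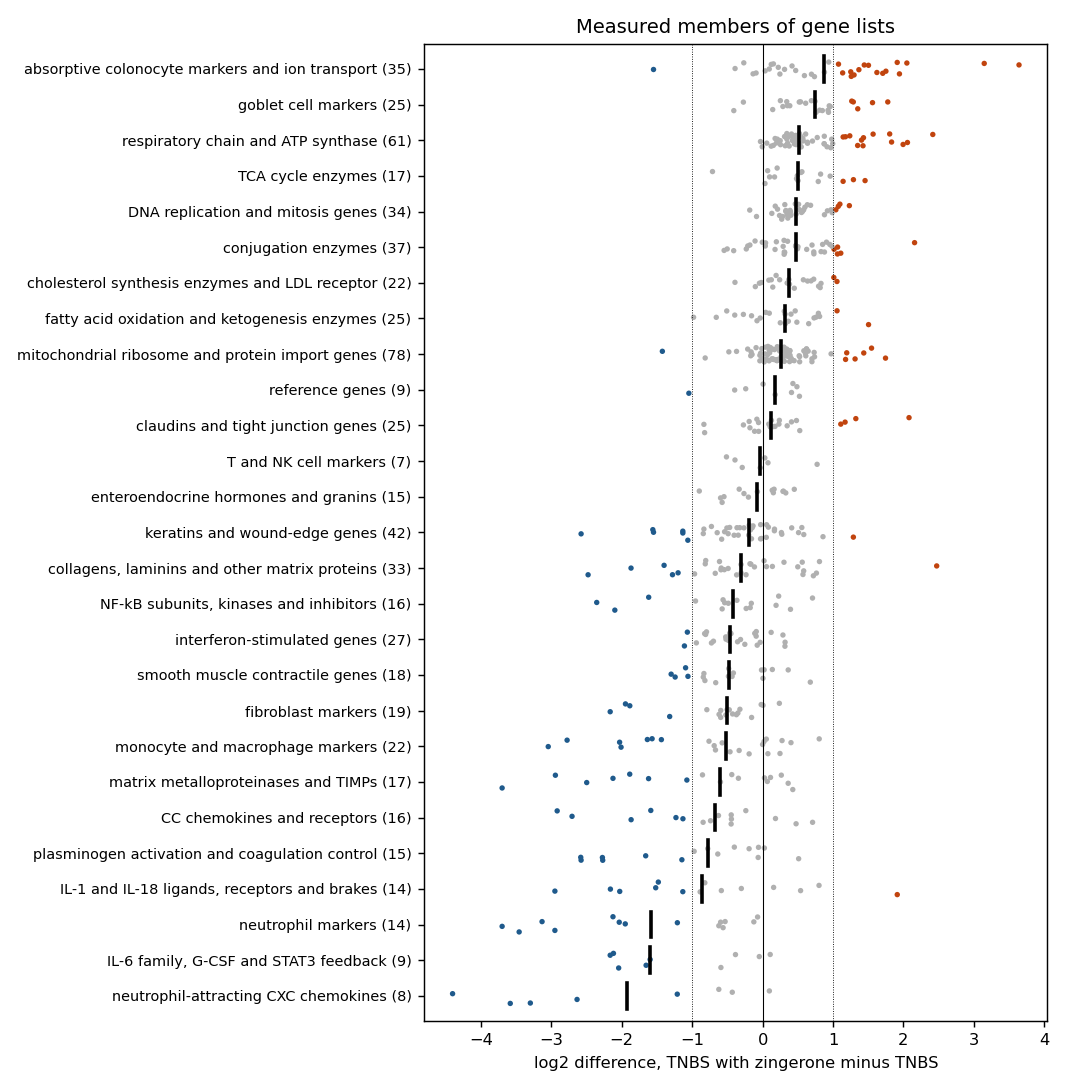
Log2 difference, zingerone minus TNBS, of each measured member (points) of 27 gene lists, with the number measured in brackets and the list median as a bar. Dotted lines mark 2-fold. Among the lists drawn, a choice from 54, medians run from -1.92 for neutrophil-attracting chemokines to 0.88 for absorptive colonocyte markers. The filter lets in genes that are bright on 1 array alone. Over all members on the array the median is -0.30 in place of -1.60 for the IL-6 family. It is -0.58 in place of -1.58 for neutrophil markers and 0.60 in place of 0.88 for colonocyte markers.

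Absorptive colonocyte genes were the main group on the higher side. Guca2a, which encodes guanylin, the peptide that drives chloride and bicarbonate secretion, read 34596 on zingerone, 14803 on ginger, 2772 on TNBS and 20660 on mock, and was 12.5-fold higher than on TNBS. The chloride-bicarbonate exchanger Slc26a3 read 3704, 1145, 418 and 2377 on the same arrays, 8.86-fold higher. For both genes the zingerone array was the highest of all. The potassium channel subunit Kcne3, which sustains chloride secretion, was 4.14-fold higher (1208 on zingerone, 292 on TNBS). Of 41 colonocyte and ion transport genes on the array 35 were measured. Among these 30 lay above TNBS, 16 were higher and 1, Emp1, was lower by 2.93-fold. The median was 0.88 over the measured and 0.60 over all 41. Of the fixed colonocyte markers, Krt20 (11211 on zingerone, 12315 on TNBS) lay below TNBS within 2-fold. Vil1 (2400 and 1733) lay above it, also within 2-fold. Carbonic anhydrases and transcription factors were among the 16 and are named after their values were seen. Car1 was 3.76-fold, Car4 3.08-fold and Car2 2.72-fold higher. Cdx2, a master regulator of intestinal identity, read 987.5 on zingerone, 486.8 on ginger, 256.8 on TNBS and 564.5 on mock, 3.85-fold higher, and Cdx1 and Hnf4a were 2.39-fold and 2.20-fold higher. The sodium pump subunit Atp1b1 was 3.17-fold higher, and both of its probes passed 2-fold. Cldn8, a barrier claudin of the distal colon, read 1085 on zingerone, 508.2 on ginger, 256.8 on TNBS and 844 on mock, 4.23-fold higher. Cldn15 (1.32 on the log2 scale), Cldn3 (2.25-fold) and Cldn2 (2.16-fold) were the other higher members among 25 measured tight junction genes, of which none was lower.

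Goblet cell markers mostly lay above TNBS, and some passed 2-fold. Of 31 goblet cell markers 25 were measured and 23 lay above their TNBS value. Among the 25, 5 were 2-fold higher, beside 4.72% of all measured genes, and none was 2-fold lower. The median over all 31 was 0.55. The secreted mucus genes Tff3 (0.93), Clca1 (0.61) and Zg16 (0.25), and the goblet cell gene Agr2 (0.76), were within 2-fold. Tff3 read 64634 on zingerone, the highest deposited value, so a larger difference from TNBS could not show for it. Retnlb, an antimicrobial resistin-like protein gene, was 2.55-fold higher. The goblet cell peptide Spink4 read 24360 on zingerone, 23447 on ginger, 7105 on TNBS and 33940 on mock, 3.43-fold higher. The membrane mucin Muc13 was 2.95-fold higher, and its 2 probes were higher by 1.73 and 1.39. Muc2, the gel-forming mucin, has 4 probes with unlike signs. The brightest read 6773 on zingerone and 3420 on TNBS, higher by 0.99, while the others differed by 0.53, -0.03 and -0.34 and read at most 389.8 on either array. Galnt6, which starts O-linked glycans on mucins, was 4.68-fold higher, and the lectin Reg4 5.11-fold (7366 on zingerone, 1443 on TNBS). Mptx1, a pentraxin of the colon epithelium, was 4.31-fold higher, at 812.2 on zingerone, 553 on ginger, 188.2 on TNBS and 4270 on mock, and so remained below mock. Gsdmc4, a gasdermin of the colon epithelium, was 3.47-fold higher on zingerone (1446) than on TNBS (416.5), with 2414 on ginger and 4101 on mock. Markers of endocrine cells showed no 2-fold difference in 15 measured of 23.

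**Figure D3:**
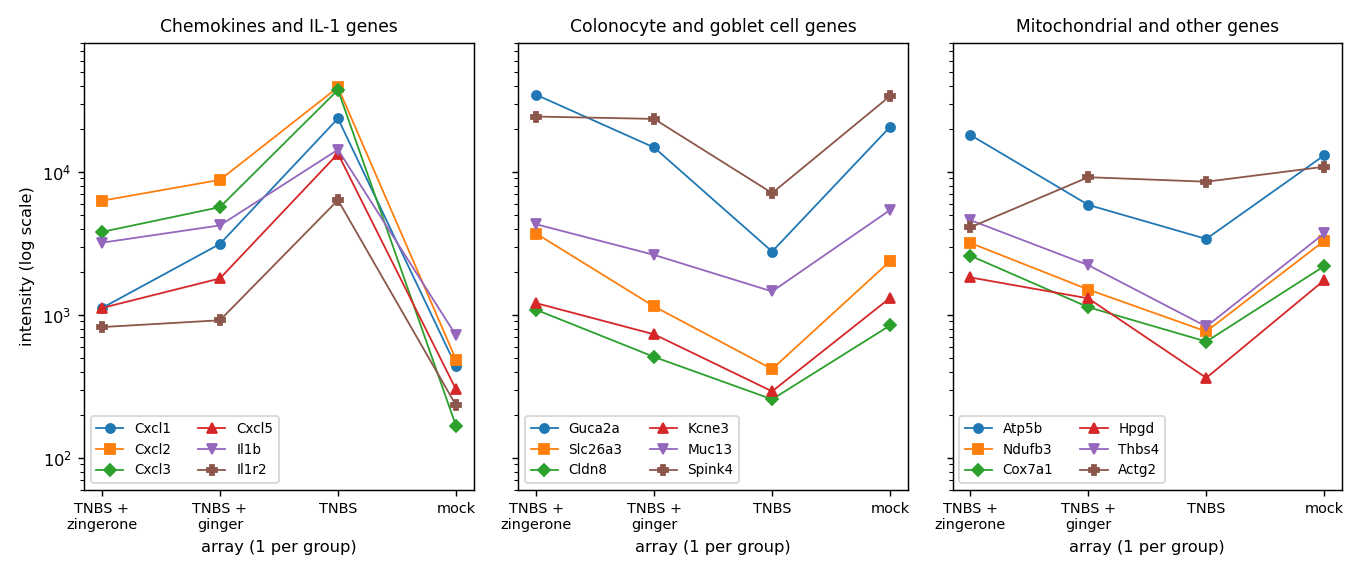
Intensity (log scale) of 18 genes on the 4 arrays, 1 per group, from left to right TNBS with zingerone, TNBS with ginger, TNBS and mock; lines only join the values of a gene. Chemokine and IL-1 genes are highest on TNBS, colonocyte and mitochondrial genes are lowest on TNBS, and Actg2 is lowest on zingerone.

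Genes of the respiratory chain were mostly above their TNBS values. The respiratory chain passes electrons through complexes I to IV in the inner mitochondrial membrane, and ATP synthase uses the resulting proton gradient. Of 65 genes of the chain and synthase on the array 61 were measured. Of these 59 lay above the TNBS value, 13 were 2-fold higher and none was 2-fold lower, with a median over all 65 of 0.48. By comparison, 48.4% of all measured genes lay above the TNBS value. Atp5b, the catalytic subunit of ATP synthase, read 18134 on zingerone, 5874 on ginger, 3396 on TNBS and 13062 on mock, 5.34-fold higher. Ndufb3 of complex I read 3186, 1504, 765.5 and 3298, 4.16-fold higher, and Cox7a1 of complex IV read 2594, 1132, 650.5 and 2193, 3.99-fold higher. In all 3 the zingerone value lay within 2-fold of mock. A split by complex, made after the values were seen, gave medians of 1.08 for 10 genes of ATP synthase, 0.78 for 7 of complex III, 0.64 for 9 of complex IV, 0.49 for 4 of complex II and 0.44 for 31 of complex I. For these groups ginger minus TNBS gave medians of 0.70, 0.47, 0.62, 0.29 and 0.43 in the same order.

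**Figure D4:**
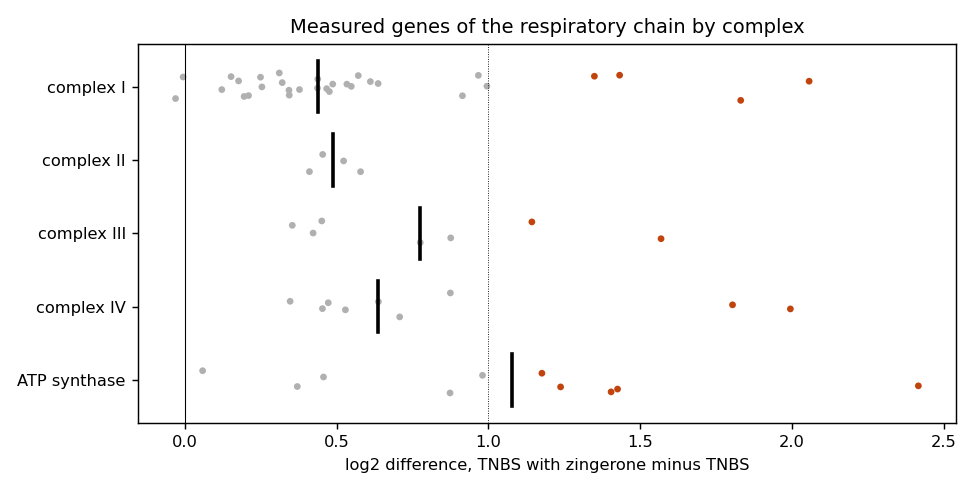
Log2 difference, zingerone minus TNBS, of the 61 measured respiratory chain and ATP synthase genes by complex (points), with the median as a bar and 2-fold as a dotted line. In each complex most points lie above 0, and the highest median, 1.08, is that of ATP synthase.

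Other metabolic lists were less uniform. Hypoxia response and glycolysis genes had 8 of 27 measured members above TNBS, 4 lower and 1 higher, with a median over 31 on the array of -0.20. The glycolytic regulator Pfkfb3 was 3.59-fold lower (914.2 on zingerone, 883.4 on ginger, 3278 on TNBS and 820.5 on mock), the glucose transporter Slc2a3 3.07-fold and the angiogenic factor Vegfa 2.58-fold. Of 170 measured solute carriers 9 were higher and 7 lower, beside 4.72% and 3.01% of all measured genes. The peptide transporter Slc15a3 was 4.27-fold lower. The list of phase I and related enzymes had 9 higher and 1 lower of 62 measured. Its higher members include the methyltransferase-like genes Mettl7a1 and Mettl7b, which are not phase I enzymes. Mettl7a1 was 2.67-fold higher and Cyp4f18 2.85-fold lower. The list of tricarboxylic acid cycle and adjoining enzymes had 16 of 17 measured members above TNBS, and 3 of them were 2-fold higher. These adjoin the cycle: pyruvate dehydrogenase subunit Pdha1 at 2.74-fold, the gluconeogenic enzyme Pck1 at 2.45-fold and pyruvate carboxylase (Pcx) at 2.21-fold. No measured enzyme of the cycle itself passed 2-fold. Mitochondrial ribosome and import genes had 6 higher and 1 lower of 78 measured, with Mrpl36 at 3.35-fold, Mrpl18 at 2.92-fold and Mrpl37 at 2.71-fold (median over 88 on the array 0.24). The carnitine carrier Slc25a20 was 2.84-fold and the thiolase Acaa2 2.08-fold higher, and they were the higher members among 25 measured fatty acid oxidation genes. A list of glucuronosyl, sulfo, glutathione, methyl and acyl transferases had 5 of 37 measured members higher and none lower (median over 51 on the array 0.29). The largest increase was that of the glutathione transferase Gstt3 (2056 on zingerone, 1057 on ginger, 460.5 on TNBS and 1810 on mock, 4.46-fold). The microsomal glutathione transferases Mgst2 and Mgst3 were 2.16-fold and 2.09-fold higher. Gstt3, Mgst2 and Mgst3 are not enzymes that add glucuronic acid or sulfate. Mettl7b, a thiol methyltransferase, was 6.21-fold higher, at 3330 on zingerone, 1916 on ginger, 536 on TNBS and 1550 on mock, and thus 2.15-fold above mock. Alad, an enzyme of heme synthesis, was 4.41-fold higher, and the gut glutathione peroxidase Gpx2 2.42-fold, while the heme-degrading Hmox1 was 2.84-fold and mitochondrial Sod2 4.21-fold lower. The NRF2 target Nqo1 did not reach the filter (264.5 on zingerone, 267.6 on TNBS), and the list as a whole had 2 higher and 3 lower of 26. Cell division genes lay above TNBS in 32 of 34 measured cases but were 2-fold higher in 4, among them Fen1 (2.35-fold), Mcm5 (2.14-fold) and Plk1 (2.11-fold). The cholesterol and lipid enzymes Ebp (2.08-fold) and Scd2 (2.02-fold) were the higher members among 22 measured.

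Remaining lists are to be read beside 4.72% of all measured genes higher and 3.01% lower. Crypt and Wnt target genes had 4 of 20 measured members higher, with Cdca7 at 3.65-fold and Myb, a transcription factor of crypt progenitors, at 2.64-fold. The brush border phosphatase Alpi was 3.25-fold higher (711.8 on zingerone and 219 on TNBS), and was the higher member among 9 measured small intestine genes. Proteasome subunits had 2 of 35 higher, Psmd13 (2.55-fold) and Psma4 (2.39-fold), near the share of all measured genes, and 17 of the 35 lay above TNBS. Ribosomal proteins had 2 of 18 higher, Rps3 (2.18-fold) and Rpl14 (2.11-fold). The invariant chain Cd74, which escorts MHC class II molecules, was 2.24-fold higher. It was the only member past 2-fold among 10 measured MHC class II genes, of which 4 lay above TNBS. The median over 13 on the array was -0.09. The chaperone Dnajb11 was 2.22-fold higher, the only member past 2-fold among 32 measured ER folding and stress genes. Keratin and wound-edge genes had 6 lower and 1 higher of 42 measured, with annexin Anxa1 at 2.95-fold lower. Interferon-stimulated genes had 2 lower of 27, Bst2 (2.16-fold) and Trim30a (2.10-fold). The B cell attractant Cxcl13 was 2.56-fold, the histamine-forming enzyme Hdc 2.25-fold and the adhesion molecule Icam1 2.04-fold lower. Outside the lists' main themes, the small heat shock protein gene Cryab read 1484 on zingerone, 3714 on ginger, 11570 on TNBS and 893.2 on mock, 7.80-fold lower, and the protease inhibitor Ctla2a read 1975, 3528, 13791 and 842, 6.98-fold lower. The reference gene B2m was 2.07-fold lower.

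Smooth muscle genes were mixed on the zingerone array. Of 22 smooth muscle genes on the array 18 were measured, 4 were lower and none higher, and the median over all 22 was -0.42, beside a ginger-minus-TNBS median of -0.03 over the measured. Actg2, the enteric smooth muscle actin, read 4091 on zingerone, 9174 on ginger, 8531 on TNBS and 10858 on mock. Hspb7, Flna and Des were 2.46-fold, 2.37-fold and 2.13-fold lower than on TNBS. Contractile genes did not share 1 pattern. Myh11 lay below TNBS within 2-fold, at 1096 on zingerone, 1887 on ginger, 1934 on TNBS and 3172 on mock. Acta2 (0.005), Tagln (0.02) and Cnn1 (-0.02) hardly differed. Smtn (0.68), Synm (0.36) and Lmod1 (0.14) lay above TNBS, as did 5 of the 18 in all. Markers of enteric neurons and glia were below TNBS in all 11 measured cases of 21, but 9 of them were within 2-fold, and the filter lets in members that are bright on TNBS. The lower members were the peptides galanin (Gal, -1.41) and Vip (-1.08), and the median over all 21 was -0.26. The part of tissue make-up in the epithelial and mitochondrial differences was not tested. The hepatic plasma protein genes Alb (553 on zingerone, 819 on ginger, 3412 on TNBS and 3566 on mock) and Fgb (188.8, 254.5, 1072 and 833) were 6.17-fold and 5.68-fold lower than on TNBS, and their mock values were as high as those on TNBS or nearly so. Of 22 plasma protein genes on the array 16 were measured, 6 were lower and none higher, with a median over all of -0.14. Adipocyte markers had 2 of 13 measured members lower, Cfd (2.35-fold) and Fabp4 (2.31-fold).

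The only repeat measurement is a second probe of the same gene, which shares the hybridisation and is no replicate of the mice. Of 1694 measured genes with a pair of probes, the median gap between the probes' differences was 0.33 on the log2 scale and the 95th percentile 1.22. Where the brighter probe was 2-fold higher (81 genes), the dimmer had the same sign in 54 and passed 2-fold in 5. Where the brighter was 2-fold lower (58 genes), the dimmer had the same sign in 46 and passed 2-fold in 2. Genes of several probes whose mean passed 2-fold numbered 41, and in 9 of them every probe did so: Hpgd, Atp1b1, Muc13, Pck1 and Akr1c13 were higher, and Lilrb4a, Ptgs2, Acsl4 and Cd52 lower. Most genes named above rest on 1 probe.

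**Figure D5:**
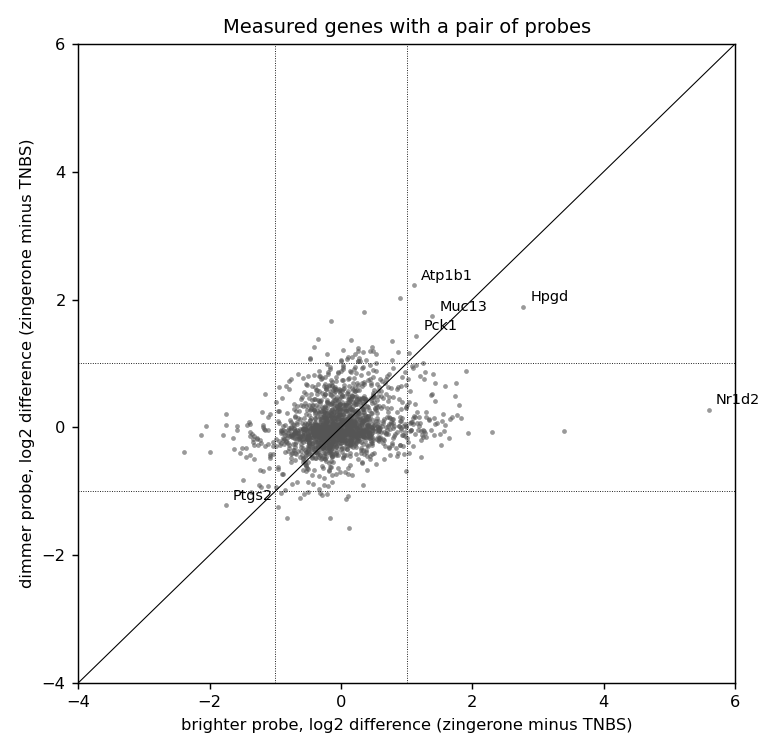
Log2 difference, zingerone minus TNBS, by the dimmer probe (y) and the brighter probe (x) of 1694 measured genes with a pair of probes. The solid line marks equal values and the dotted lines 2-fold; Hpgd, Atp1b1, Muc13 and Pck1 pass 2-fold with both probes, and Nr1d2 with the brighter alone.

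Some of the largest differences had unusual profiles over the 4 arrays. Clptm1l read 23980 on zingerone, 1860 on ginger, 1916 on TNBS and 21510 on mock. Nr1d2, a clock repressor, rests on a single bright probe, at 37402 on zingerone, 1044 on ginger, 772 on TNBS and 719 on mock. This probe was far brighter on zingerone than elsewhere. It was not set aside because the other arrays lay slightly more than 1.4-fold apart. The other probe of Nr1d2, at 171.8 on zingerone and 141.8 on TNBS, was dim, and the mean of both probes was 7.66-fold higher. The clock output gene Dbp was 4.38-fold higher from 1 probe (1612 on zingerone, 1187 on ginger, 367.8 on TNBS and 2670 on mock). Mex3d read 2105 on zingerone and at most 363.2 elsewhere. Tmem258 was dim on zingerone alone (121.2, against at least 2753 elsewhere), and Sema4b was dim on zingerone (98.2) and ginger (156.2) but not on TNBS (1458). Smim6 (1540 on zingerone, 574.5 on ginger, 191 on TNBS and 1444 on mock) followed the colonocyte pattern. The named probes set aside as bright on zingerone alone were those of Armh3, Cdk19, Dcaf17, Med13l, Mrps14 and Olfr868 and 1 of 21 named for Ugt1a1, and with all such probes kept 460 genes were higher and 298 lower.

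The share of genes past 2-fold differed with brightness. Of the 2403 dimmest measured genes by mean intensity of both arrays 3.29% were higher and 0.749% lower, and of the 2402 brightest 7.08% and 6.91%. No deposited value is below 74.2.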

How the data were processed

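One Cy3 intensity per probe was deposited for each of 4 arrays, on a linear scale, for 29922 probes. Labelling started from 5 µg of total RNA, per the labels' protocols. Among tools, the submitters' processing notes list limma, with no version. How background was treated and arrays were scaled is not stated there. Between arrays, the deposited intensity at each rank differs by 1.84% or less, so all arrays have nearly the same distribution and the brightest genes, up to 64634, compare by rank.

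The platform annotation gives 21020 probes 1 gene symbol and 8902 none. Symbols were updated through RefSeq's table for GRCm38.p6 (17558 current, 3410 updated, 52 kept). The log2 of each intensity was used without a pseudocount and averaged per gene (Python 3.11.15, pandas 2.3.3, numpy 2.4.6). Of the measured genes 7574 have 1 probe and 2035 several. No test was run, since each group has 1 array, and this number limits the precision. The steps were run on simulated arrays with planted changes and a noise level set in advance. This checks the steps and says nothing about the error of the real arrays.

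The comparison and the 54 gene lists were chosen with earlier results of these data known, and the proteasome list was corrected once for a gene that is no subunit. Genes were named by rule: the 20 largest increases and decreases, the 3 members of each list furthest apart past 2-fold, up to 10 each way with every probe past 2-fold, and 20 in any case, of which Actb and Trpv1 have no value here and Gapdh did not reach the filter. Predicted genes and olfactory receptors were skipped, among them Olfr389 (3082 on zingerone, 172 on TNBS). Named after their values were seen were list members given as within 2-fold or above TNBS, and Pf4, Ptgis, Csf1, Socs3, Plekhh1, Cdx1, Cdx2, Hnf4a, Car1, Car2, Car4, Cldn2, Slfn4, P2rx4, Shisal1, Fcgbp and the genes of probes set aside.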

Additional observations from a re-analysis of the deposited data

Results flagged for a closer look

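Probes without a gene name were used in no comparison. Of 2872 such probes at or above the filter, 135 were at least 2-fold higher (4.70%) and 75 at least 2-fold lower (2.61%) on zingerone than on TNBS, with no error to set them against. These shares stand beside 4.72% and 3.01% of named genes. The probe with the largest increase, mMC025918, read 3973 on zingerone, 1496 on ginger, 486.2 on TNBS and 3017 on mock. The deepest decrease, of mMC020473, was to 550.8 on zingerone, against 5744 on TNBS, with 776.2 on ginger and 213.5 on mock.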

How the results depend on the processing

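No paired analysis was possible because each group has 1 array, and no replicate could be left out. The counts of 454 higher and 289 lower genes became 944 and 523 when each array's 5th percentile was subtracted, and lay between 358 and 533 and between 268 and 352 under the other 8 settings. One of these, setting aside probes dim on 1 array alone, was chosen after seeing the data. Each of 134 named genes that a setting left measured kept its direction and its side of 2-fold there, except Il1a (-1.45 by its brightest probe, and likewise with subtraction) and Tnf (-1.03 with subtraction), which passed it. The filter at the 75th percentile removed Hdc, Il1a, Nfkb1 and Trim30a, and setting aside dim probes removed Tmem258. Of list medians, 28 differed from the reported value by more than 0.33 on the log2 scale, the median gap between probes of a gene. With single-array probes kept, the neutrophil median was -1.95. Without a filter, medians were -0.30 for IL-1 genes, -0.30 for the IL-6 family, -0.58 for neutrophil, -0.14 for mast cell and -0.40 for plasminogen genes, 0.18 for small intestine genes and 0.23 for gasdermins. With the filter at the 75th percentile, they were -3.30 for CXC chemokines, -1.48 for IL-1, -2.04 for neutrophil, -1.57 for macrophage, -0.45 for T and NK cell, -0.19 for mast cell, -1.75 for metalloproteinase, -1.15 for plasminogen, -0.69 for endothelial and -1.77 for plasma protein genes, and 0.50 for skeletal muscle, 1.70 for small intestine and 0.69 for xenobiotic receptor genes. By the brightest probe, they were -0.76 for the IL-6 family, -0.90 for neutrophil, -0.94 for metalloproteinase and -0.83 for smooth muscle genes and 1.72 for gasdermins. With subtraction, they were -1.37 for IL-1 and -1.01 for mast cell genes. Filters alter which members are counted; for the other settings the cause was not tested. Signal near background limits the folds of dim genes.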
